A study of Mus musculus with 43 samples.

Results

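Morulae from oocytes lacking Pcgf1, Pcgf6 and Mll2 (maternal triple knockout, matTKO) were compared with morulae from oocytes lacking only Pcgf1 and Pcgf6 (maternal double knockout, matDKO), by the RNA of 10 libraries in each group. These 20 libraries are 20 of the 43 in the study. The remaining libraries hold 10 wild-type (WT) morulae and 13 libraries of full-grown oocytes. All genes with a mean of at least 1 TPM (a level per transcript length, on a scale that sums to the same total in every library) in either mutant group entered the test, which gave 12767 of 35842 genes. Both groups lacked Pcgf1 and Pcgf6 from the mother, so they differ by genotype in the maternal loss of Mll2, whose gene symbol is Kmt2b. WT morulae took no part in the test and are given as levels. The labels give no strain, no age, no driver of the deletions, no genotype of the sire and no number of embryos per library. They do not say whether libraries came from separate litters, so each p-value speaks of spread among libraries that could be in part technical.

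PCGF1 and PCGF6 are subunits of variant Polycomb repressive complexes 1, which place ubiquitin on histone H2A. MLL2 is a methyltransferase of histone H3 lysine 4 that carries a CXXC zinc finger, a domain that binds CpG dinucleotides free of methylation, and it works at CpG-rich promoters in the oocyte. In oocytes H2A ubiquitin marks sites where H3K27me3, the mark of Polycomb repressive complex 2, is laid down. Some of that H3K27me3 passes into the embryo and silences the maternal copy of a small set of genes, among them Xist, the noncoding RNA that coats and silences an X chromosome. The study's title names a counteraction between H2A ubiquitin and MLL2 in the making of heritable H3K27me3, and the present comparison asks what the loss of maternal MLL2 adds in embryos that already lack maternal PCGF1 and PCGF6.

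The sequencing depth is unknown because only scaled values were used, and between 10902 and 12482 genes reached 1 TPM in each mutant library. RNA of 4 Y-linked genes (Ddx3y, Eif2s3y, Kdm5d and Uty) was uneven between the groups. Its summed level was 31.67 to 80.69 TPM in 8 matTKO libraries and 0.04 in the other 2, against 44.17 to 64.14 in 3 matDKO libraries and at most 0.62 in the other 7. Of the WT libraries 5 held it. The labels give no sex, so libraries are called with or without Y-linked RNA, and the main X-linked results are given with and without this split. Libraries matDKO 8, matDKO 9, matTKO 8 and matTKO 9 stood apart, with a median correlation to the other mutant libraries of 0.875 to 0.899, whereas the other 16 reached 0.914 to 0.951. The median SD within a group, on the log2(TPM + 1) scale, was 0.53 in matDKO and 0.54 in matTKO against 0.39 in WT. Embryo genes such as Pou5f1, Gata3 and Krt8 were present in all 30 libraries. Of 21 granulosa and cumulus cell markers 5 were tested and 0 called, and 4 were listed at 0 in all 20 mutant libraries. Their summed level was 308 to 488 TPM in matDKO and 209 to 568 TPM in matTKO, of which Gja1, a gap junction gene with a WT median of 224 TPM, gave medians of 334 and 325 TPM. The defining Fshr, Cyp19a1, Foxl2 and Amh did not exceed 0.32 TPM, while Hsd17b1 reached 27.3 TPM in matDKO and Tnfaip6 13.64 TPM in matTKO 8. The 13 protein-coding mitochondrial transcripts were all tested and 0 called, with a median difference of 0.05 and a summed level of 52900 to 250000 TPM in matDKO and 56400 to 214000 TPM in matTKO. The part of these levels in the results was not tested.

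The deleted genes were examined first. Kmt2b stood at 5.52, 10.2 and 13.5 TPM in matDKO and at 2.68, 7.53 and 10.8 in matTKO (lowest, median and highest of each group), with a WT median of 5.79. The groups overlapped, and 4 matTKO libraries lay below every matDKO library. The difference was -0.52 ± 0.24 (log2, SE; limma, adjusted p = 0.909), so embryo RNA of Kmt2b did not separate the genotypes at the threshold. Pcgf1 had medians of 10.1 TPM in matDKO and 14.6 in matTKO against 22.6 in WT, and Pcgf6 had 20.3, 17.1 and 22.2 TPM. Neither differed between the mutants at the threshold (limma, adjusted p = 0.937 and 0.999). These values check the labels only weakly, since a maternal deletion acts in the egg and its embryo may carry an intact paternal copy. In the oocyte libraries of the same genotypes, Kmt2b stood at 3.58 to 4.21 RPKM in DKO and 1.04 to 1.31 in TKO.

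The further loss of maternal MLL2 was accompanied by very few changes that passed the test. Of 12767 genes 4 were called at an adjusted p under 0.05 (limma), which is 0.0313%, with Rabl2 and Lncenc1 higher and Gm26881 and 4930519F09Rik lower in matTKO. At an unadjusted p under 0.05 there were 676 genes, or 5.29%, of which 449 were higher (3.52%) and 227 lower (1.78%) in matTKO. The median difference over all genes tested was 0.03 on the log2 scale. The groups had no overlap in 2 genes, Rabl2 and Ecel1, which is 0.0157%.

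**Figure D1:**
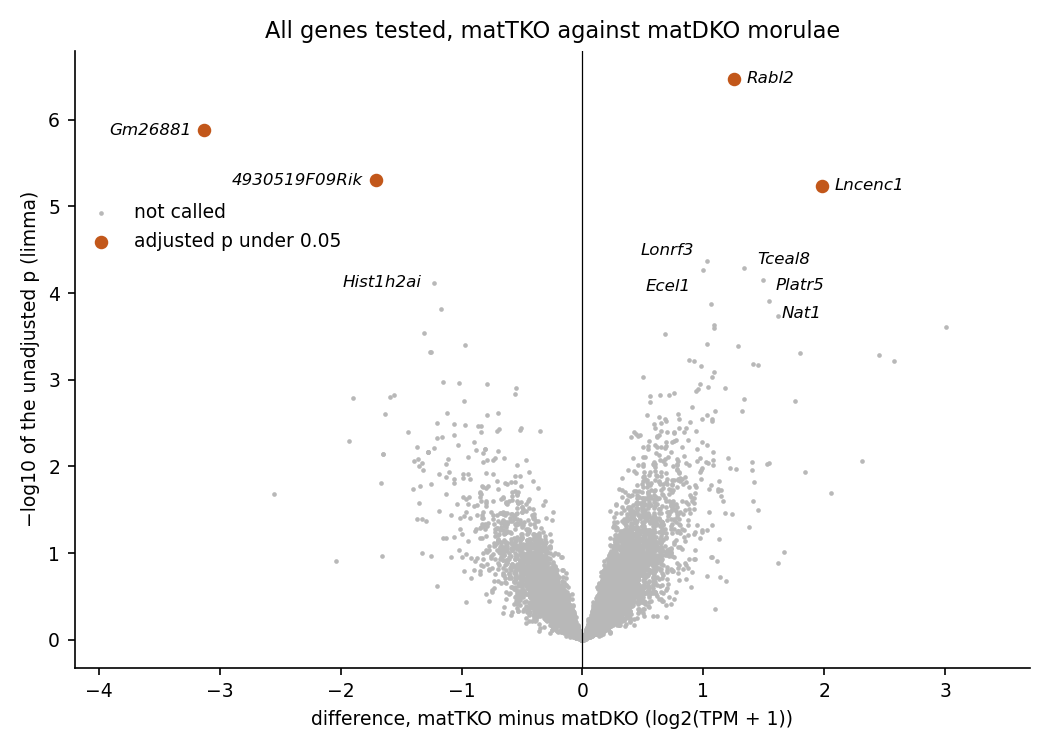
Each point is 1 of the 12767 genes tested, with the difference of matTKO minus matDKO on the log2(TPM + 1) scale (x axis) against −log10 of its unadjusted limma p (y axis). The 4 called genes are drawn larger in orange and named together with the next 6 genes by p, and they stand above all other points.

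Rabl2 (chromosome 15, 89582533 to 89591923, minus strand, GRCm38), a small GTPase-like protein known from cilia and the sperm tail, rose in matTKO. Its level was 4.81, 8.14 and 13.3 TPM in matDKO and 13.4, 20.6 and 28.5 TPM in matTKO (lowest, median, highest). All 10 matTKO libraries lay above the highest matDKO library, though the nearest pair was close, 13.38 against 13.29 TPM. Rabl2 rose by 1.25 ± 0.18 on the log2 scale (SE; limma, adjusted p = 0.00432). In WT its median was 10.2 TPM and its highest value 14.3 TPM, and 9 matTKO libraries exceeded that. The difference was 1.40 ± 0.28 within libraries with Y-linked RNA (limma, adjusted p = 0.516, 8 against 3 libraries), 1.32 ± 0.21 with Y-linked RNA as a term (adjusted p = 0.0207) and 1.21 ± 0.19 without the 4 libraries that stood apart (adjusted p = 0.0170).

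Lncenc1 (chromosome 13, 97434970 to 97497007, plus strand), a long noncoding RNA known from naive embryonic stem cells, also rose in matTKO. It was listed at 0 in all 10 matDKO libraries and reached 0, 4.03 and 7.49 TPM in matTKO. Lncenc1 thus entered the test only through its matTKO mean of 3.87 TPM. The 9 matTKO libraries above 0 held 0.12 to 7.49 TPM, and matTKO 10 was listed at 0. In WT the median was 0 and the highest value 0.96 TPM, and 8 matTKO libraries exceeded that. The rise was 1.98 ± 0.34 on the log2(TPM + 1) scale (limma, adjusted p = 0.0185), and no fold is given because a listed 0 can be a failed estimate. The call was lost with Y-linked RNA as a term, where the difference was 2.08 ± 0.40 (adjusted p = 0.0765), and without matTKO 3, 5 or 6 (adjusted p = 0.0554, 0.0518 and 0.0508).

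The promoters of these 2 genes are shown because MLL2 is known for CpG-rich promoters. No promoter sequence was at hand for the 2 genes that fell. Each sequence holds the 250 bases before the start of the gene in RefSeq (GRCm38.p6), on the gene's own strand, with CG dinucleotides in capitals. The Rabl2 window is chr15:89591924-89592173 and the Lncenc1 window chr13:97434720-97434969.
Rabl2: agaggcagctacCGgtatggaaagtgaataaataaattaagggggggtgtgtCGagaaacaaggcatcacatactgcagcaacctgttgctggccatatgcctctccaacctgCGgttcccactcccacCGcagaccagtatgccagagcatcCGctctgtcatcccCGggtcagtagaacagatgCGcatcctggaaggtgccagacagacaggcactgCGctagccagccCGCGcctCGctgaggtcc
Lncenc1: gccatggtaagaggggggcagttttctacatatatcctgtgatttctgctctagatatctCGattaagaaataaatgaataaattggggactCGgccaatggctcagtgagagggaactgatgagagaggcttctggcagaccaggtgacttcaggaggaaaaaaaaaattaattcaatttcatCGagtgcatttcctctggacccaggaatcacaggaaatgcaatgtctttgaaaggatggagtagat
Rabl2 has 11 CG in this window and Lncenc1 has 3. Of the 12767 genes tested 9697 had a RefSeq promoter, with a median of 15 CG and quartiles of 8 and 22. As many CG as in Rabl2 or more were held by 68.2% of these promoters, and as many as in Lncenc1 or more by 92.7%. Neither window is thus rich in CG among the genes tested, which says only what letters these bases hold.

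Gm26881 (chromosome 4, 43045966 to 43053254, plus strand), annotated as an antisense RNA, fell in matTKO. Its level was 17.3, 40.6 and 71.9 TPM in matDKO and 0.45, 2.90 and 56.2 TPM in matTKO. In 9 matTKO libraries it lay at 0.45 to 9.16 TPM, below every matDKO library, and matTKO 10 alone reached 56.2. Gm26881 fell by 3.13 ± 0.49 on the log2 scale (SE; limma, adjusted p = 0.00849). The library chemistry does not mark the strand, so its reads cannot be told apart from those of an overlapping gene on the other strand. 4930519F09Rik (chromosome 10, 28880921 to 28923507, minus strand), a transcribed pseudogene, fell as well. It stood at 1.11, 3.40 and 6.71 TPM in matDKO and at 0, 0.08 and 4.06 TPM in matTKO, where the other 9 libraries did not exceed 0.25 and matTKO 10 held the 4.06. This gene entered the test only through its matDKO mean of 3.42 TPM. The fall was 1.71 ± 0.29 on the log2 scale and lost its call with Y-linked RNA as a term, where it was -1.83 ± 0.34 (limma, adjusted p = 0.0185 and 0.0622). It also missed the threshold without the 4 libraries that stood apart, at -1.6 ± 0.34 (adjusted p = 0.0918), and without matTKO 3, 5 or 6 (adjusted p = 0.0510, 0.0518 and 0.0508).

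The 2 genes that fell lie on different chromosomes but were high and low in the same libraries. Over all 30 morula libraries 4930519F09Rik reached 1 TPM or more in 17, and in those Gm26881 held 17.12 to 76.94 TPM. In the other 13 libraries 4930519F09Rik was at most 0.25 TPM and Gm26881 0.41 to 9.16 TPM, so that the libraries formed 2 separate sets in both genes. The high set held 10 of 10 matDKO, 6 of 10 WT and 1 of 10 matTKO libraries. WT morulae were thus split between the levels of the 2 mutant groups. Whether the 2 genes share reads was not tested, so their falls may not be independent results. Library matTKO 10 lay with the matDKO libraries in 3 of the 4 called genes, and its Kmt2b, at 2.68 TPM, was the lowest of its group. In Rabl2 it held 19.51 TPM, among the other matTKO libraries. Without it the 4 calls remained, with differences of -3.53 for Gm26881, -1.93 for 4930519F09Rik, 2.20 for Lncenc1 and 1.25 for Rabl2 (limma, adjusted p = 1.28e-05, 0.000102, 0.000659 and 0.00291). Library matTKO 10 was singled out by its values in 3 of these genes, so their larger differences without it were fixed in advance.

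**Figure D2:**
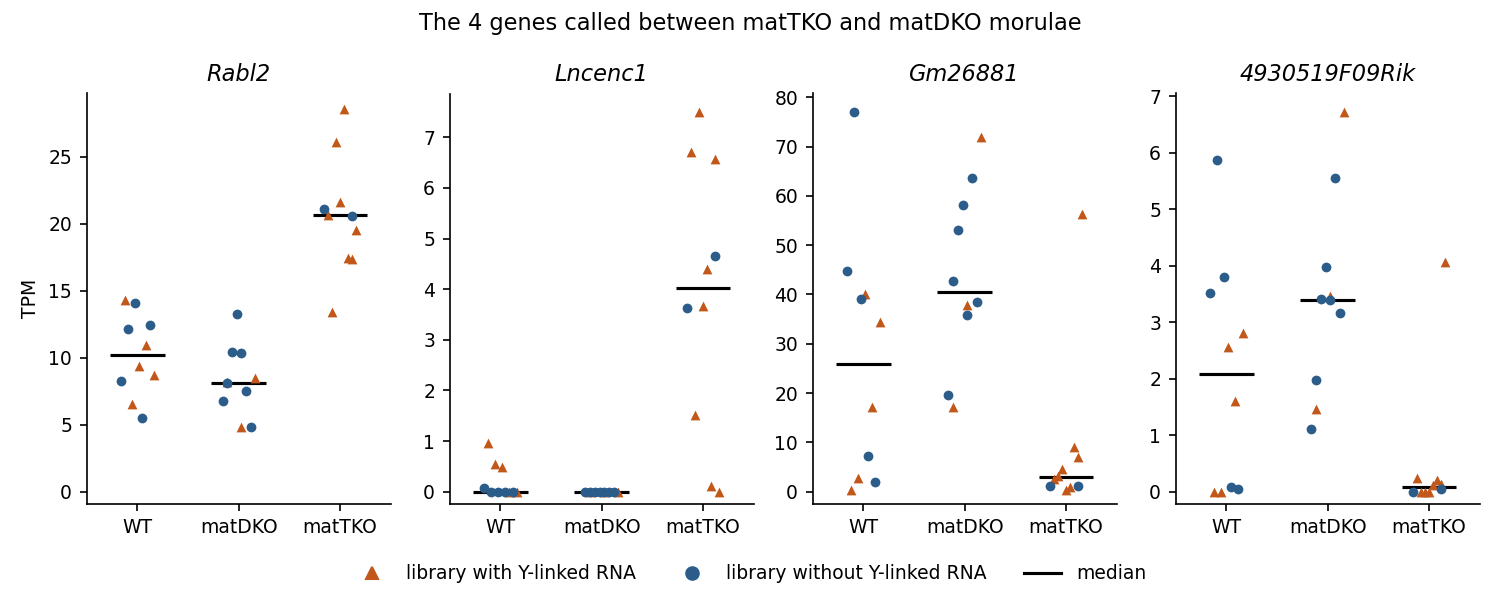
Levels in TPM (y axes) of the 4 called genes in each of 10 WT, 10 matDKO and 10 matTKO libraries (x axis), with triangles for libraries with Y-linked RNA, circles for those without and a bar at the median. Rabl2 and Lncenc1 sit higher in matTKO, and Gm26881 and 4930519F09Rik sit low in 9 of 10 matTKO libraries, while WT libraries fall into a high and a low set in both genes that fell.

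The next 6 genes by p missed the threshold, 5 of them higher in matTKO and 1 lower. Ecel1, a membrane metallopeptidase, was listed at 0 to 0.06 TPM in matDKO and at 0.07 to 2.26 TPM in matTKO, with a difference of 1.0 ± 0.20 (limma, adjusted p = 0.0984), and its matTKO median was only 1.29 TPM. Platr5, a noncoding RNA of pluripotent cells, had medians of 1.07 TPM in matDKO, 4.58 in matTKO and 1.81 in WT (limma, adjusted p = 0.108), and it passed the threshold without the 4 libraries that stood apart, at 1.42 ± 0.27 (adjusted p = 0.0437). The X-linked Lonrf3 and Tceal8 had differences of 1.03 ± 0.21 and 1.34 ± 0.27 (limma, adjusted p = 0.0984 for each), and 0.90 ± 0.24 and 1.10 ± 0.30 with Y-linked RNA as a term. Nat1, an arylamine N-acetyltransferase, stood at 0.05, 1.14 and 5.40 TPM in matDKO and 1.6, 5.12 and 11 TPM in matTKO, with a WT median of 8.40 TPM. It missed the threshold in the 20 libraries (limma, adjusted p = 0.154) and passed it with Y-linked RNA as a term, at 2.03 ± 0.34 (adjusted p = 0.0207), and without the 4 libraries that stood apart (adjusted p = 0.0379). With that term 3 genes of 12763 were called, or 0.0235%: Rabl2, Gm26881 and Nat1. Hist1h2ai, a replication-dependent H2A histone of a multigene family whose members can share reads, had medians of 174 TPM in matDKO, 67.5 in matTKO and 75.9 in WT (limma, adjusted p = 0.108).

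Genes imprinted through maternal H3K27me3, the group that the study's title points to, did not differ at the threshold between matTKO and matDKO. The levels of these and all other imprinted genes do not tell the parental copies apart, so they do not show whether imprinting itself changed. The list holds 38 genes, of which 37 are in the table and 26 were tested, and 0 were called (limma). At an unadjusted p under 0.05, where 5.29% of all genes lie, there were 5 of the 26, 4 higher and 1 lower in matTKO. The median difference of the 26 was 0.10, beside 0.03 for all genes, and 0.20 beside 0.08 with Y-linked RNA as a term. A member below a mean of 1 TPM in both mutants was not tested, which was so for Bmp7, Flt1, Prox1 and 8 others.

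Fam198b had the smallest p of the list. It stood at 2.17, 5.51 and 8.79 TPM in matDKO and 2.53, 11.2 and 14.6 TPM in matTKO, so that 6 matTKO libraries lay above every matDKO library, and its WT median was 5.86 TPM. The difference was 0.82 ± 0.27 (limma, p = 0.00598, adjusted p = 0.606) and 0.86 ± 0.22 without the 4 libraries that stood apart (adjusted p = 0.194). Mbnl2, a splicing regulator, had medians of 4.85 TPM in matDKO, 8.95 in matTKO and 7.37 in WT, a difference of 0.73 ± 0.34 (limma, adjusted p = 0.900). Jade1, a chromatin reader of a histone acetyltransferase complex, had 17.2, 22.6 and 15.1 TPM in the same order. Platr4, a noncoding RNA of pluripotent cells, had 4.70, 7.85 and 1.33 TPM. Rbp2, a retinol-binding protein, had the largest difference, 0.92 ± 0.47, with a range of 0.32 to 34.9 TPM in matTKO. In the 20 libraries the difference was smaller than its SE in Sfmbt2, a Polycomb-related gene of the placenta, at -0.10 ± 0.48, in the signalling adaptor Gab1 at -0.18 ± 0.41 and in the amino acid transporter Slc38a4 at -0.19 ± 0.42. Without the 4 libraries that stood apart Gab1, which held 0.08 TPM in matTKO 9, was at 0.30 ± 0.22 and Slc38a4 at -0.34 ± 0.20.

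**Figure D3:**
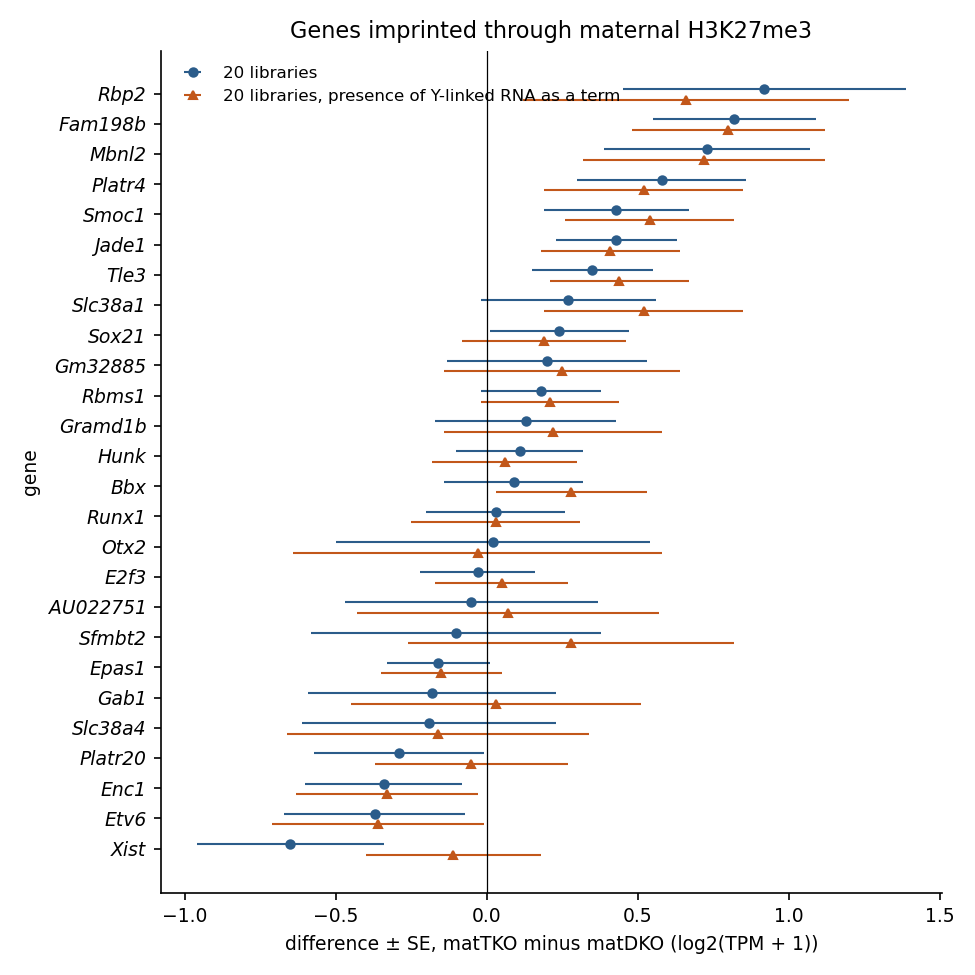
Difference of matTKO minus matDKO (x axis, log2(TPM + 1), with SE bars) for the 26 tested genes imprinted through maternal H3K27me3 (y axis), from the 20 libraries alone (circles) and with the presence of Y-linked RNA as a term (triangles). Values run from -0.65 for Xist to 0.92 for Rbp2, and Xist moves to -0.11 once the Y-linked RNA is in the fit.

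Xist itself (chromosome X, 103460366 to 103483254, minus strand) stood at 24.7, 57.2 and 120 TPM in matDKO and at 16.5, 36.5 and 70.3 TPM in matTKO. The groups overlapped widely, and the difference of -0.65 ± 0.31 missed the threshold (limma, adjusted p = 0.928). With Y-linked RNA as a term it was -0.11 ± 0.29. Among libraries with Y-linked RNA, Xist held 24.7 to 30.6 TPM in 3 matDKO, 16.5 to 62.2 TPM in 8 matTKO and 1.74 to 11.6 TPM in 5 WT libraries, so that all 8 matTKO libraries lay above every WT library of that kind. Among libraries without Y-linked RNA it held 51.5 to 120 TPM in 7 matDKO, 38.2 to 70.3 in 2 matTKO and 23.3 to 67.8 in 5 WT libraries. Within either mutant the median was higher without Y-linked RNA, at 60.3 against 27.1 TPM in matDKO and 54.2 against 30.2 TPM in matTKO. Ftx and Tsix, noncoding genes beside Xist that were added after their values were seen, had differences of -0.97 ± 0.30 (limma, adjusted p = 0.540) and -0.38 ± 0.46, and -0.56 ± 0.31 and 0.49 ± 0.40 with the term. Xist and Tsix overlap on opposite strands, so their reads cannot be told apart here.

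Genes on the X chromosome had lower medians in both mutants than in WT. Over 371 X-linked genes in libraries with Y-linked RNA, the median difference from WT was -0.53 in matDKO and -0.40 in matTKO, against -0.14 and -0.12 for autosomal genes. In libraries without Y-linked RNA it was -0.40 and -0.28, against -0.04 and 0.10 for autosomal genes. These comparisons share the WT libraries, and they are descriptions without a test. Between the mutants, the median over X-linked genes was -0.05 and over 12011 autosomal genes 0.04, a gap of -0.09 that turned to 0.11 with Y-linked RNA as a term, to 0.17 within libraries that held it and to -0.03 within those that did not. No test was made of these gaps. At an unadjusted p under 0.05 there were 12.4% of X-linked and 4.99% of autosomal genes, and 7.82% and 4.11% with the term.

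Of 58 tested X-linked housekeeping genes 0 were called, and 20 had a difference above 0 and 38 below it. Those above 0 were 34.5% of the list, beside 43.4% of the 371 X-linked genes and 56.2% of all genes tested. Their median was -0.11, or 0.16 with Y-linked RNA as a term, and their summed level had a median of 8400 TPM in matDKO and 5560 TPM in matTKO. Pgk1 and Msn, which had the highest differences of the glycolysis and the compaction lists and are also members here, go against that majority. Pgk1, a glycolytic enzyme, stood at 0, 2.54 and 9.55 TPM in matDKO and at 0.61, 9.71 and 26.8 TPM in matTKO, against a WT median of 48.3 TPM. In matTKO 6 libraries lay above every matDKO library, and the difference was 1.18 ± 0.53 (limma, adjusted p = 0.879), or 1.16 ± 0.62 with Y-linked RNA as a term. Msn, which encodes moesin, a linker of membrane and actin, stood at 0, 0.82 and 5.83 TPM in matDKO and 0.15, 4.09 and 13.1 TPM in matTKO, against 30.1 TPM in WT. Its difference was 1.22 ± 0.44 (limma, adjusted p = 0.677) and 1.24 ± 0.52 with the term. All 10 matDKO libraries lay below every WT library in both genes, as did 8 matTKO libraries in Pgk1 and 9 in Msn. Both genes had the higher median in matTKO without passing the test. Most genes of the list went the other way in the 20 libraries, but not with Y-linked RNA as a term, where the list median was 0.16.

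The X-linked homeobox gene Rhox5 showed a wide gap among libraries with Y-linked RNA. There it held 0.17, 4.05 and 20.8 TPM in the 3 matDKO, 11.3 to 652 TPM with a median of 212 in the 8 matTKO, and 0.20 to 27.5 TPM in the 5 WT libraries. In matTKO 6 of those 8 lay above every WT library with Y-linked RNA, and matTKO 8 and matTKO 10 did not. Without Y-linked RNA it held 57.7 to 356 TPM in matDKO, 369 and 814 TPM in the 2 matTKO and a median of 344 TPM in WT. The difference was 1.67 ± 0.96 in the 20 libraries, 3.54 ± 0.82 with the term and 4.90 ± 1.13 within libraries with Y-linked RNA (limma, adjusted p = 0.995, 0.372 and 0.843), so none passed the test. Rhox9, a neighbour of the same family, had a median of 0 TPM in matDKO and 4.39 in matTKO with a highest value of 53.9 TPM, a difference of 1.84 ± 0.67 (limma, adjusted p = 0.702) and 1.69 ± 0.79 with the term.

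**Figure D4:**
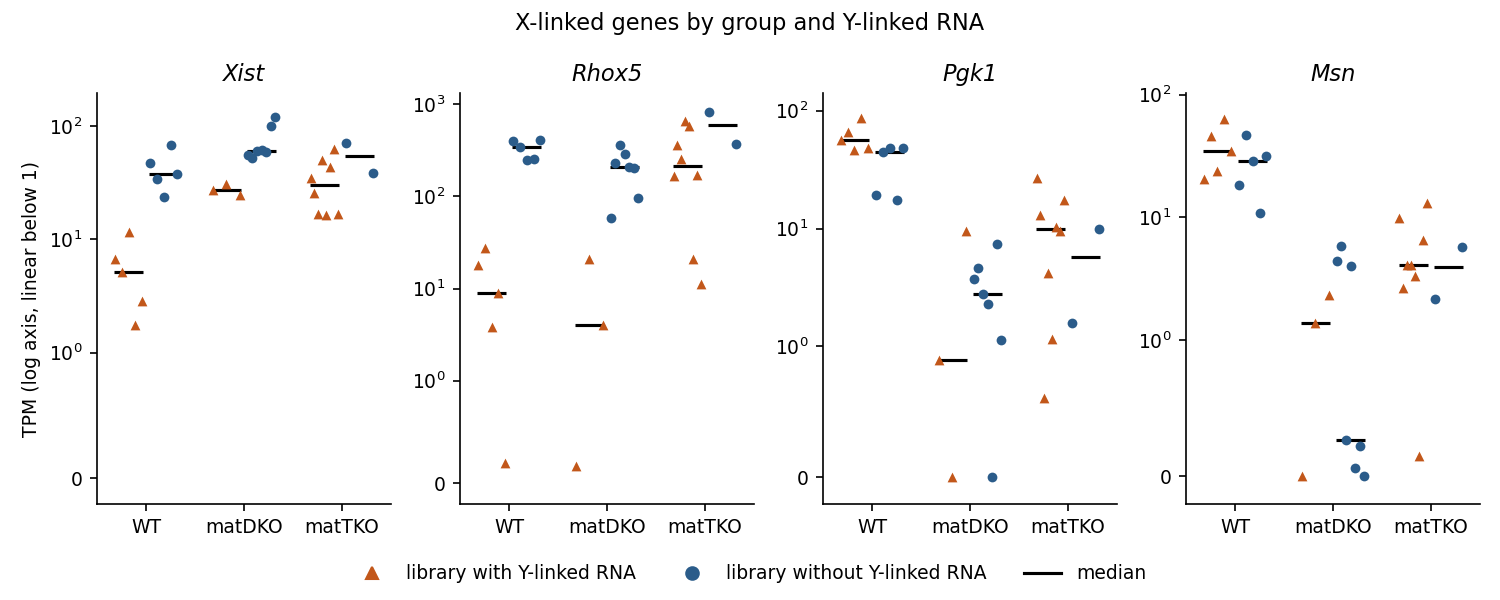
Levels in TPM (y axes, log above 1 and linear below) of Xist, Rhox5, Pgk1 and Msn in WT, matDKO and matTKO libraries (x axis), with libraries that hold Y-linked RNA as triangles on the left, the others as circles on the right, and a bar at each median. Xist is above the WT range in mutant libraries with Y-linked RNA, Rhox5 exceeds it in 6 of 8 such matTKO libraries, and Pgk1 and Msn lie lower in both mutants than in WT.

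Among genes imprinted through DNA methylation in the germ line, 29 of 46 were tested and 0 called, with a median of -0.08. Cdkn1c, a cyclin-dependent kinase inhibitor expressed from the maternal copy, came nearest. It stood at 0.12, 2.08 and 9.17 TPM in matDKO and 4.67, 7.40 and 29.5 TPM in matTKO, and 4 matTKO libraries lay above every matDKO library. The difference was 1.62 ± 0.37 (limma, adjusted p = 0.182), and WT ranged from 0.10 to 13.3 TPM, which covers most of both groups. In oocytes Cdkn1c held 13.0 to 16.6 RPKM in DKO, 45.2 to 64.0 in TKO and 3.07 to 3.28 in WT.

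No gene of the Polycomb or MLL machinery passed the test. Of 37 tested PRC1 subunits 0 were called and 2, Pcgf1 and Yaf2, were higher at an unadjusted p under 0.05 (5.41%, beside 3.52% of all genes). Yaf2, a subunit of variant PRC1, had medians of 1.71 TPM in matDKO, 3.18 in matTKO and 6.46 in WT (limma, adjusted p = 0.651). The medians of the differences were 0.01 for PRC1 subunits, 0.02 for 11 PRC2 subunits and 0.06 for 21 MLL and COMPASS genes, where Kmt2b alone had an unadjusted p under 0.05. Of 119 developmental regulators that Polycomb silences, 23 reached the level for testing, 0 were called, and their median was 0.02. Barx1, a homeobox gene, had the largest of their differences, with medians of 0 TPM in matDKO and 2.01 in matTKO (1.09 ± 0.28, limma, adjusted p = 0.328).

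Lineage regulators of the morula did not differ at the threshold. The trophectoderm genes Cdx2, Gata3 and Krt8 had differences of -0.07 ± 0.27, -0.08 ± 0.23 and 0.48 ± 0.51. The pluripotency genes Pou5f1, Nanog and Sox2 had 0.02 ± 0.19, -0.04 ± 0.28 and 0.01 ± 0.56, and the primitive endoderm gene Gata6 had -0.05 ± 0.19. Cdx2 stood at a median of 8.61 TPM in matDKO and 9.18 in matTKO against 15.9 in WT. Over the lists, medians were 0.07 for 36 trophectoderm genes, -0.10 for 29 pluripotency genes and -0.28 for 16 primitive endoderm genes, and 0.20, 0.01 and -0.06 with Y-linked RNA as a term. Without the 4 libraries that stood apart they were 0.04, -0.09 and -0.62. In the 20 libraries 14 of the 16 primitive endoderm genes had a difference below 0, beside 5594 of all 12767 genes. Genes of the 2-cell stage, a transient burst after fertilisation, had 0 called of 23 and 6 lower at an unadjusted p under 0.05 (26.1%, beside 1.78% of all genes), with a median of -0.23 that was 0.11 without the 4 libraries that stood apart. Tcstv1 of this list had 0, 4.29 and 11.6 TPM in matDKO and 0, 0.27 and 1.87 TPM in matTKO (-1.37 ± 0.45, limma, adjusted p = 0.606). Of 24 tested oocyte and maternal-effect genes 0 were called and 3 were lower at an unadjusted p under 0.05 (12.5%). Zp3, an egg coat glycoprotein, had 0.71, 12.2 and 37.2 TPM in matDKO and 0.14, 1.68 and 11.7 TPM in matTKO, with a WT median of 3.54 TPM (-1.90 ± 0.53, limma, adjusted p = 0.406). In all, 26 lists had tested members and 0 of them had a called one. Among the stress lists, the median was -0.24 for 24 integrated stress response genes, -0.03 for 32 p53 and apoptosis genes and 0.08 for 22 oxidative stress and metal genes. The first of these was -0.06 with Y-linked RNA as a term and 0.05 without the 4 libraries that stood apart, of which matDKO 8 and matDKO 9 held 17.65 and 31.63 TPM of its member Trib3 against a matDKO median of 5.69 TPM.

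Oocytes of the same genotypes were set beside the morulae as a description. They are other libraries, in RPKM and scaled apart from the morula table, so the sizes of the differences are given side by side. In 3 TKO against 3 DKO oocyte libraries 380 of 12647 genes were higher by at least 2-fold on the log2(RPKM + 1) scale without overlap (3.0%) and 584 were lower (4.62%), and 55.2% of genes had no overlap at any size. In morulae 217 and 421 of these genes were tested, and 0 of either set were called. Their median differences in morulae were -0.02 and 0.06, beside 0.05 for the 9178 genes with a mean of 1 in both tables. In oocytes they were 1.24 and -1.37, but the sets were chosen by that oocyte difference, so its size there was fixed in advance. At an unadjusted p under 0.05 in morulae were 5.07% of the first set, 9.03% of the second and 4.61% of the 9178 genes. In the second set those were 20 higher (4.75%) and 18 lower (4.28%), beside 3.4% higher and 1.21% lower among the 9178 genes. In the first set they were 9 higher (4.15%) and 2 lower (0.922%).

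Of the 10 genes with the largest falls from DKO to TKO oocytes, Ccnb1ip1, a meiotic crossover factor, stood at 35.6 to 45.0 RPKM in DKO and 0.63 to 0.69 in TKO. In morulae it had medians of 20.8 TPM in matDKO and 16.3 in matTKO (-0.27 ± 0.27, limma, adjusted p = 0.999). Fmr1nb, an X-linked germ-cell gene, stood at 45.6 to 49.9 RPKM in DKO and 1.49 to 2.53 in TKO oocytes, and in morulae at 74.1, 227 and 472 TPM in matDKO and 0.95, 111 and 321 TPM in matTKO, a difference of -1.93 ± 0.63 (limma, adjusted p = 0.583). Arxes2, also X-linked, had -1.39 ± 0.48 in morulae (limma, adjusted p = 0.651). Of the 10 genes with the largest rises, Plac1, an X-linked placental gene, stood at 13.8 to 23.2 RPKM in DKO and 67.0 to 155 in TKO. In morulae it had a median of 0 TPM in matDKO and 1.39 in matTKO (1.13 ± 0.43, limma, adjusted p = 0.750). The differences of Fmr1nb, Arxes2 and Plac1 were taken without Y-linked RNA as a term, and the part of its uneven presence in them was not tested. Pdpn, a membrane glycoprotein, was high in TKO oocytes at 54.1 to 63.8 RPKM and stood at 7.65 TPM in matDKO and 5.91 TPM in matTKO morulae. Of the genes called in the morula, Rabl2 held 9.12 to 9.43 RPKM in DKO and 6.23 to 7.95 in TKO oocytes, lower without overlap, Lncenc1 at most 0.02 and 4930519F09Rik at most 0.28. Gm26881 held 3.15 to 4.85 RPKM in DKO and 8.49 to 10.2 in TKO oocytes, also without overlap and in the opposite order to morulae.

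**Figure D5:**
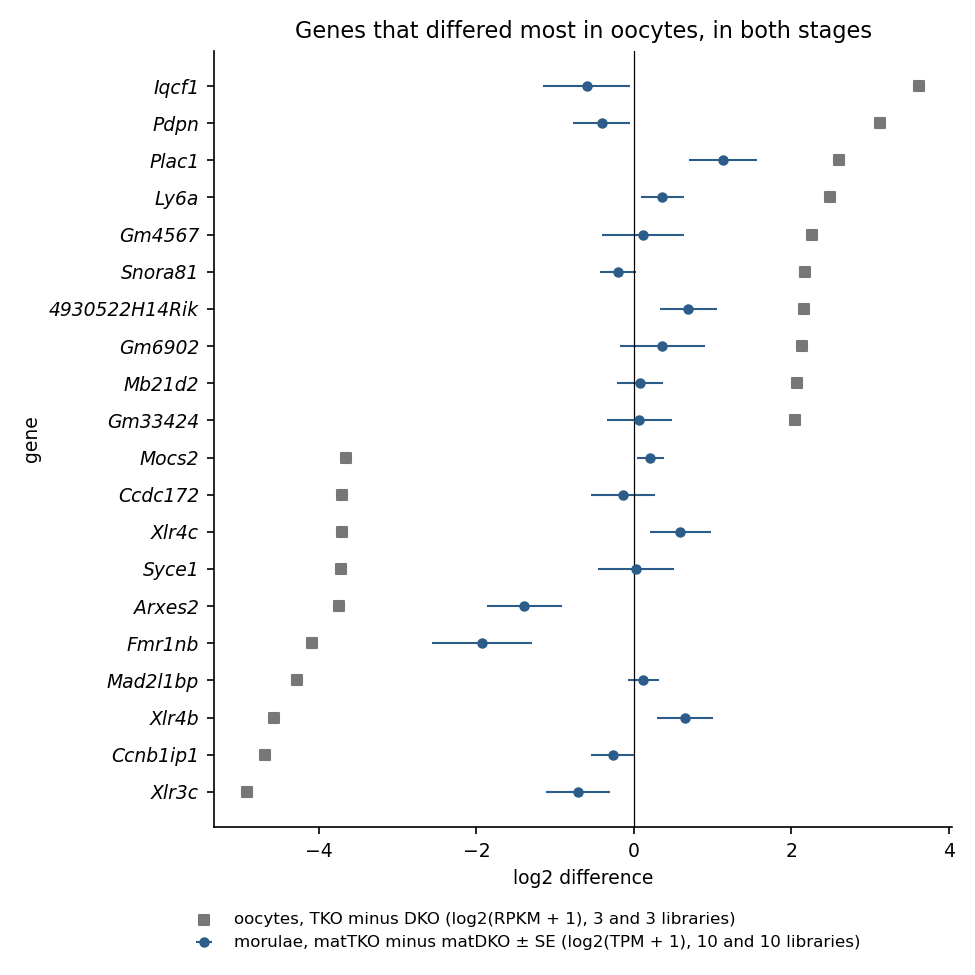
Difference between triple and double knockout (x axis, log2 scale) of the 10 genes with the largest rises and the 10 with the largest falls from DKO to TKO oocytes (y axis). Squares are for oocytes (RPKM, 3 against 3 libraries) and circles with SE bars for morulae (TPM, 10 against 10 libraries). The genes were picked by their oocyte difference, which exceeds 2 in size throughout for that reason, and the morula differences lie between -1.93 and 1.13.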

How the data were processed

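RNA was measured in 30 morula and 9 knockout-series oocyte libraries, copied with SMART-Seq v4 and made into Nextera XT libraries, per the labels' protocols, a chemistry that does not mark strand. The submitters' processing notes name, with no role for each, RSEM 1.3.1, STAR (2.7.3, 2.7.6), featureCounts 1.6.0, Trim Galore 0.6.4 and the builds mm10 and GRCm38. The oocyte values are RPKM as deposited. The deposited morula values are titled RPKM, but each library sums to 999421 to 999922, so they were taken as TPM, and the test planned on the log scale was kept. WT columns were matched to their group by name. Coordinates are GENCODE on GRCm38. The chromosomes behind the X-linked and autosomal groups are from RefSeq, whose symbols or synonyms matched 33379 of 35842. Levels were analysed as log2(TPM + 1), which understates changes of low genes, with limma 3.58.1 (lmFit, eBayes with trend) in R 4.3.3 on genes with a mean of at least 1 in either group. Genes below that mean in either group could enter through the other group alone, as did Lncenc1, 4930519F09Rik, Ecel1 and Barx1 among others. Tests were two-sided and adjusted by Benjamini-Hochberg over all 12767 genes. No replicate block was used. Libraries with a summed level of 10 TPM or more over 4 Y-linked genes were taken to hold Y-linked RNA, a split added after the data were seen. Named genes were the deleted genes, called genes, the 2 largest differences of each list without a call, set lineage genes and the 10 smallest p-values, plus genes named as added. The H3K27me3 list members Mbnl2, Jade1 and Platr4, each with an unadjusted limma p under 0.05, were described outside this rule. So were its members Sfmbt2, Gab1 and Slc38a4, some granulosa markers, Mir3101 and genes picked by their oocyte difference. Members and lists were chosen with earlier results of these data known. The catalytic-dead oocytes were not analysed here. The fit was tested on simulated data.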

Additional observations from a re-analysis of the deposited data

Results flagged for a closer look

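Among 138 groups of 10 libraries (69 named genes in 2 mutant groups), 17 held a library far from the others by Dixon's test. Chance would flag about 1 in 20 groups of normally spread values. Groups such as Barx1 in matDKO, with 8 of 10 libraries at 0, are not of that kind, and the genes share the same libraries. The count of 17 is therefore not to be set against that rate. The values below are TPM. Library matTKO 10 was high in Gm26881 (56.24) and in 4930519F09Rik (4.06). Of the libraries that stood apart, matDKO 9 was low in the lineage genes Gata3 (38.43) and Krt8 (26.25) and in Uhrf1 (1.2), a cofactor of DNA methylation, and high in Tnfaip6 (0.48). Library matTKO 8 was low in Gata3 (31.54) and Fam198b (2.53) and high in Gm6763 (2.69) and in the cumulus gene Tnfaip6 (13.64). Library matTKO 9 was low in Nanog (22.03) and Spic (0.51) and high in Slc25a31 (17.9). Library matDKO 7 was low in Pou5f1 (58.41) and in the germline gene Mael (0.54). Library matDKO 5 was low in Hist1h2ai (49.15), and matDKO 4 was high in Barx1 (0.43).

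The effect of genotype differed between libraries with and without Y-linked RNA in 1 of 12763 genes, Mir3101, with an interaction of -2.25 on the log2 scale (limma, adjusted p = 0.0239). In libraries with Y-linked RNA it stood at 3.57 to 3.89 TPM in 3 matDKO and was listed at 0 in 8 matTKO libraries, and it was listed at 0 in the other mutant libraries. The interaction of this microRNA thus rests on those 3 matDKO libraries. It was listed at 0 in 9 WT libraries, and a WT library with Y-linked RNA held 5.19 TPM. At an unadjusted p under 0.05 there were 189 of the 12763 genes.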

How the results depend on the processing

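The count of called genes, 4, was 9 with WT in the fit, 2 with log2(TPM + 5), 2 with a mean of at least 5, 23 with library weights, 1 within libraries with Y-linked RNA, 10 without the 4 libraries that stood apart and 8 with the replicate number as a block, and it ranged from 2 to 6 when single libraries were left out. The cause was not tested. It was 2 without matTKO 3, 5 or 6. Quantile normalization gave 3 calls, 2 higher and 1 lower. Without the filter on the mean 4 of 26001 genes were called, 3 higher and 1 lower, and 2 of them were among the 4 main calls. Rabl2 was called in 33 of 35 alternatives, Gm26881 in 34 of 35, Lncenc1 in 26 of 34 and 4930519F09Rik in 23 of 34, and none of the 4 changed direction. Adjusted p without single libraries ranged from 0.00158 to 0.0148 for Rabl2, 1.28e-05 to 0.0274 for Gm26881, 0.000659 to 0.0554 for Lncenc1 and 0.000102 to 0.0518 for 4930519F09Rik. The alternatives that split libraries by Y-linked RNA or left out the 4 that stood apart were chosen after seeing the data. Same-numbered libraries of the groups had deviations correlated at -0.03 to 0.47, over 0.1 in 7 of 10 pairs, beside a median of 0 for other pairs. Libraries matDKO 2, 8 and 10 correlated best with the matTKO library of their own number, and the others did not. The libraries that stood apart were numbers 8 and 9 in both groups. The labels do not say whether a shared number means a shared litter or day, and the main test leaves such a pairing out. Depth is unknown, and so are the reads behind values near 1 TPM.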
